A study of Mus musculus with 16 samples.

Results

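Germline genes are genes whose transcripts are largely restricted to germ cells, and 42 of them were followed over 16 arrays of mouse fibroblasts, embryonic stem (ES) cells and induced pluripotent stem (iPS) cells. They were taken by name: every probe carrying the name of a listed gene was used, whatever its signal. Of the 28095 gene names on the array 40 were matches, with 53 of the 41174 probes. No probe was named Tex19 or Piwil4. A probe counted as well above background, or on, by the scanner software's own flag, and a level without that flag is called dim here. Of the 40 genes, 37 passed that flag somewhere and entered the test, and Asz1, Tdrd6 and Tex11 were dim on every array.

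The cells had been reprogrammed with a human artificial chromosome (HAC), a chromosome-sized vector that does not integrate into the host genome and that can be lost from the cells. C57BL/6 cells carrying iHAC1 (clones 1-A3, 1-B, 1-C3 and 1-D6, called iHAC1-iPS) had 2 copies of each of the 4 factors Klf4, c-Myc, Sox2 and Oct4 under the ubiquitous CAG promoter. C57BL/6 cells with iHAC2 (clones 2-B1, 2-C6, 2-E and 2-N, called iHAC2-iPS) had that same construct plus 2 more copies of Oct4 and a p53 knockdown cassette. After the vector had gone, the C57BL/6 iHAC-free iPS line F-B1 was sorted from 2-B1, and in the same way F-C5 came from 2-C6, F-E4 from 2-E, and F-N7 from 2-N. The ES lines were B6ES (C57BL/6) and TT2 (C57BL/6 x CBA F1). MEFs (C57BL/6 mouse embryonic fibroblasts) and the retrovirus-made iPS line 20D17 (C57BL/6 x DBA) had 1 array each and are described without a test. Each array is 1 clone or line, so a p-value measures the spread between clones, and TT2 and 20D17 differ from the HAC-made cells in strain as well. The factors on the vector were still present in the iHAC1-iPS and iHAC2-iPS clones when RNA was taken. The iPS cells were established on feeder fibroblasts, and the ES lines were kept on feeder fibroblasts too.

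Germ cells are set aside from somatic cells by RNA-binding proteins and repressors, enter meiosis under retinoic acid, and guard their genome with Piwi proteins and small RNAs that silence transposons. In fibroblasts and other somatic cells many of these genes are shut by DNA methylation of CpG-rich promoters. A variant Polycomb complex that holds E2F6, MGA, MAX and L3MBTL2, and the H3K9 methyltransferase SETDB1, also repress them. ES cells are known to transcribe a part of this set although they are not germ cells.

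Levels are log2 of the processed signal relative to the 75th percentile of the array, so that 0 is the signal of a fairly bright probe, and they were compared only within a probe. The share of spots with the flag ran from 54.2% to 65.8% over the arrays, with no saturation. The level at which a probe could still be well above background ranged from -6.82 in F-E4 to -5.32 in 2-B1, so dim values have no order between arrays. The iHAC2-iPS and iHAC-free arrays were scanned in another session, and on other slides, than the ES and iHAC1-iPS arrays, so when they are compared the session and the group cannot be told apart. Of 9 pluripotency markers 9 were well above background in both ES lines and 7 to 9 in the iHAC1-iPS clones, and their log2 summed level was 8.75 to 9.14 in ES cells, 6.72 to 6.80 in iHAC1-iPS clones, 8.31 to 9.60 in iHAC2-iPS clones and 8.94 to 9.22 in iHAC-free lines. For 12 fibroblast markers, of which at least 11 were well above background on every array, the log2 summed level was 6.11 to 7.58 in ES cells, 7.93 to 9.20 in iHAC1-iPS clones, 6.88 to 8.52 in iHAC2-iPS clones, 7.66 to 8.55 in iHAC-free lines and 8.61 in MEFs. Fewer cells of a type and less RNA per cell cannot be told apart in such bulk samples. Of 4 markers of Sertoli and other testis somatic cells 3 to 4 were well above background in iHAC1-iPS clones and 3 in both ES lines, with log2 summed levels of -2.50 to -0.43 and of -0.85 to -0.24.

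The promoters of the group are shown first, and most of them are rich in CpG. Their methylation was not measured. RefSeq promoters of the build GRCm38.p6 were found for 32 of the 42 genes and were read as the 250 bases before the transcript start. Their median was 15 CpG, against 6 over all 32851 promoters. At least 10 CpG were held by 25 of the 32, and by 12417 of the 32851. The letters CACGTG, the E-box read by MAX and its partners and the same on both strands, stood in 15 of the 32, or 46.9%, against 6.02% of all promoters and 9.37% of the promoters with at least 10 CpG. GCGGGA, letters shared by E2F-type sites, stood on either strand in 9 of the 32, or 28.1%, against 16.9% and 37.3%. Such a match is a description of the letters, not of a bound site. The promoters printed here, picked after the values were seen, have both motifs in capitals. They are those of Mael, Sycp3 and Dmc1, which were on in all iHAC2-iPS clones, then Dazl, Sycp1 and Taf7l, which among these clones were on in 2-N alone, then Rhox5, whose promoter held 4 CpG and neither motif. Dazl held 20 CpG and also neither motif. Their positions are chr1:166238745-166238994, minus strand (Mael), chr10:88459337-88459586, plus strand (Sycp3), chr15:79605110-79605359, minus strand (Dmc1), chr17:50293621-50293870, minus strand (Dazl), chr3:102936101-102936350, minus strand (Sycp1), chrX:134476491-134476740, minus strand (Taf7l) and chrX:37754358-37754607, plus strand (Rhox5). Each is written 5′ to 3′ and ends at the base before the start.
Mael: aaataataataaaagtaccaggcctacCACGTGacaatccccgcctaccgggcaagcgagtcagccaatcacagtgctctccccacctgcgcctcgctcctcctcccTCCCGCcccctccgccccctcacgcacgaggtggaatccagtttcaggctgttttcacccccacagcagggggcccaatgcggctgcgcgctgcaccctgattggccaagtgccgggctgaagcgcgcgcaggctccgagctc
Sycp3: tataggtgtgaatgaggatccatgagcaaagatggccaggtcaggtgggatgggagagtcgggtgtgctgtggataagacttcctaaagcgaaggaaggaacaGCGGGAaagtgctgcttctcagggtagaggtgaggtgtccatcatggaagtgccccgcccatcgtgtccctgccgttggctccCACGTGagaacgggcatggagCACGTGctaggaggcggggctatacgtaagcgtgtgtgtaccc
Dmc1: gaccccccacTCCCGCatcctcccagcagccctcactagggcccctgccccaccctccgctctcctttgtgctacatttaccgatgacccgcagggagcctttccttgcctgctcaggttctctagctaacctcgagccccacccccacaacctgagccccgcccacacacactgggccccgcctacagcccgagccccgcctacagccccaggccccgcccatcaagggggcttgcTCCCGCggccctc
Dazl: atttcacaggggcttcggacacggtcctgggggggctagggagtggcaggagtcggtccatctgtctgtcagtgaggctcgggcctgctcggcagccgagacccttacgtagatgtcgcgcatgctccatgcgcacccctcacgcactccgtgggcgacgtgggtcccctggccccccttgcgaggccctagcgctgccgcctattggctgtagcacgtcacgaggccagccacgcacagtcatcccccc
Sycp1: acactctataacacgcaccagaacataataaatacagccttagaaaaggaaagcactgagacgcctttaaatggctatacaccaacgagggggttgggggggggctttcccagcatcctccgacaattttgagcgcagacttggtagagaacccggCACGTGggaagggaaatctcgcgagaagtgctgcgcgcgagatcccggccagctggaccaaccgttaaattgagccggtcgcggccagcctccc
Taf7l: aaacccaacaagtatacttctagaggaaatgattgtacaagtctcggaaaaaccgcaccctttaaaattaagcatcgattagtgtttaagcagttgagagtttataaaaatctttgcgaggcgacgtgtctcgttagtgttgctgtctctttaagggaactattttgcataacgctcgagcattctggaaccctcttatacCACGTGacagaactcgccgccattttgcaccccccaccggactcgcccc
Rhox5: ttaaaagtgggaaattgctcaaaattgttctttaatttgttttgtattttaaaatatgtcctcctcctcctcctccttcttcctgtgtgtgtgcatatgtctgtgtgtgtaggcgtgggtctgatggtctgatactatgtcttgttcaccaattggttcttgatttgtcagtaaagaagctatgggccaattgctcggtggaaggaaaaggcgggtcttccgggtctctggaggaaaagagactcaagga

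Fewer of the germline genes were on in iHAC1-iPS cells than in ES cells, iHAC-free lines or 20D17. Of the 40 genes 31 were well above background in B6ES and 29 in TT2, against 13, 13, 14 and 11 in 1-A3, 1-B, 1-C3 and 1-D6. MEFs had 16. In the iHAC2-iPS clones the number was 23 in 2-B1, 23 in 2-C6, 20 in 2-E and 33 in 2-N, so by the flag clone 2-N stood apart from its 3 sister clones. The iHAC-free lines had 31, 29, 29 and 31, and 20D17 had 33. Over all spots of the array, 56.7% were well above background in 2-N, 60.1% in F-N7 and 61.7% to 62.0% in the iHAC1-iPS clones, and the part of detection in these counts was not tested. Of 27 genes on in both ES lines and in all 4 iHAC-free lines, 12 were dim in every iHAC1-iPS clone. Those 27 were picked by the flag in ES and iHAC-free cells, so lower numbers in other cells are partly built in. The matching share over all probes was not counted. Of the 40 genes 10 were on in all 4 iHAC1-iPS clones and 8 on all 16 arrays. Counted by level instead of the flag, as above the lowest level that was well above background on the array, 1-C3 had 23 genes and the other iHAC1-iPS clones 15 to 18.

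**Figure D1:**
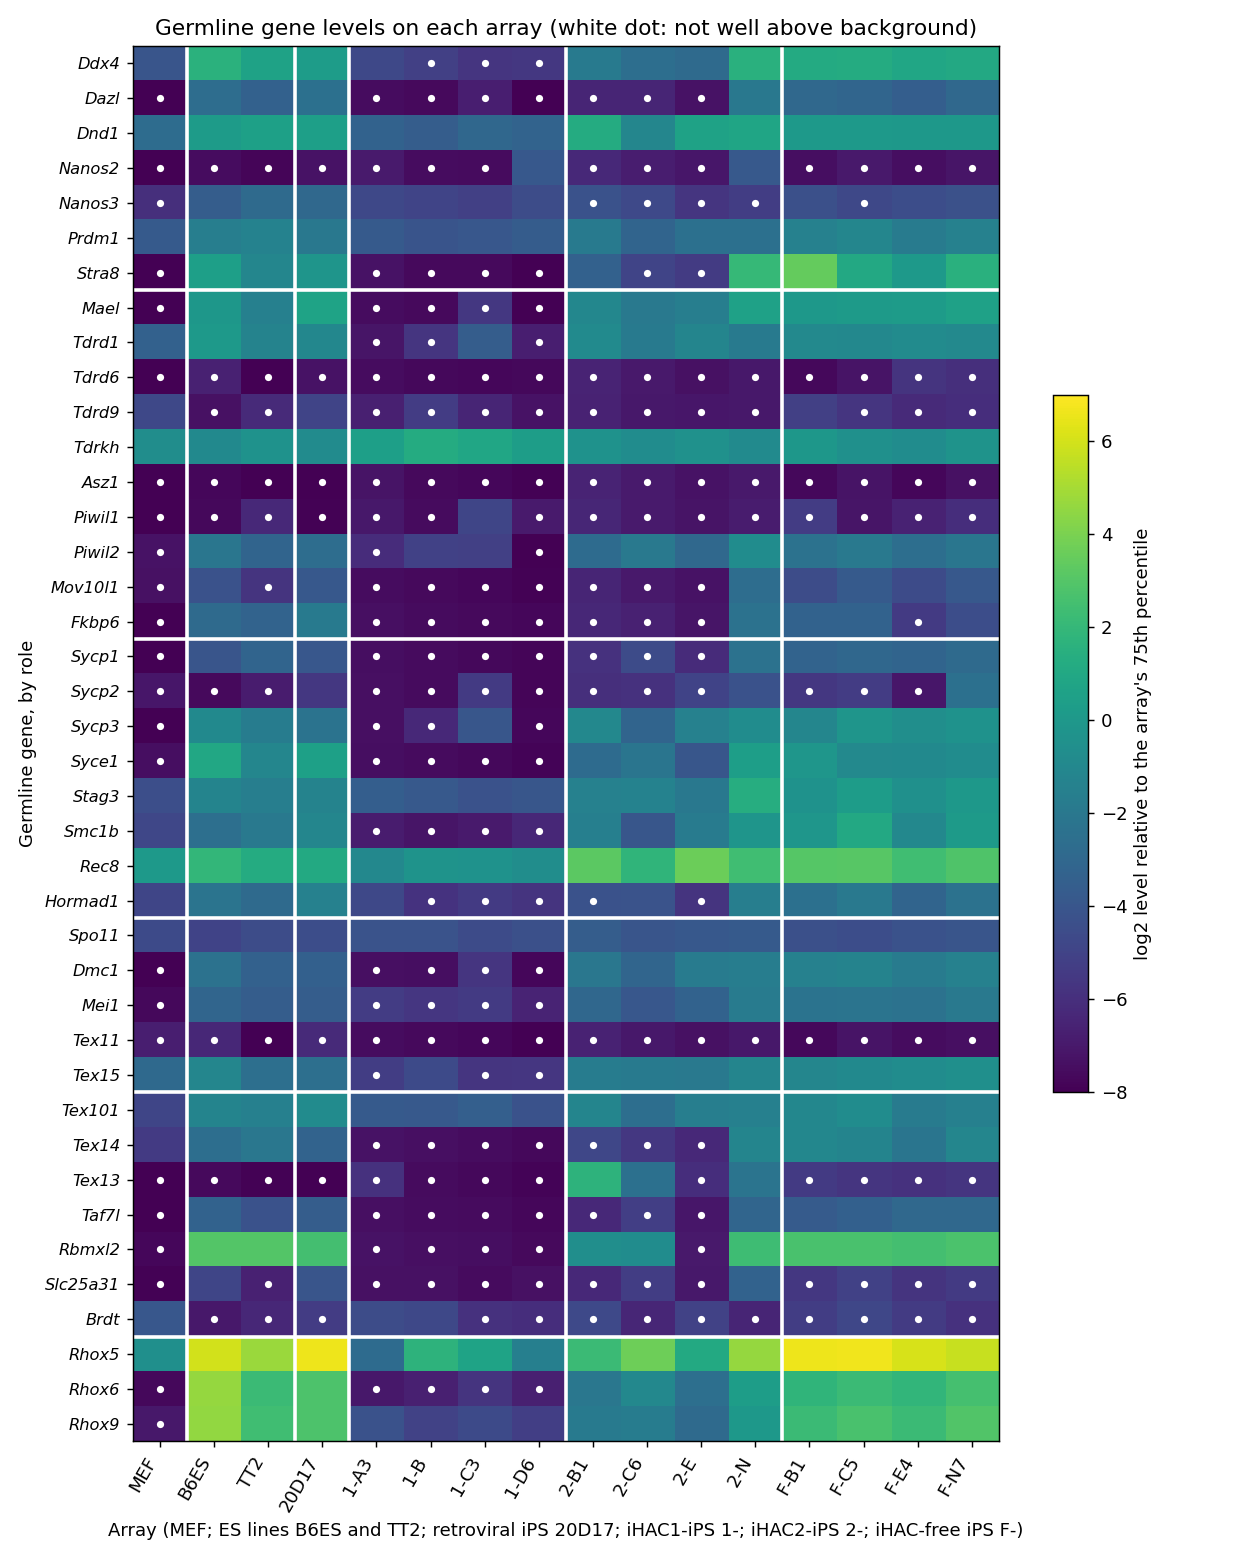
Heat map of the log2 level of 40 germline genes (rows, by role from RNA-binding factors at the top to Rhox genes at the bottom) on 16 arrays (columns, by group), with colour for the level relative to the 75th percentile of the array and a white dot where the probe was not well above background. White dots fill much of the MEF and iHAC1-iPS columns, and 2-N has fewer of them than 2-B1, 2-C6 and 2-E.

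**Figure D2:**
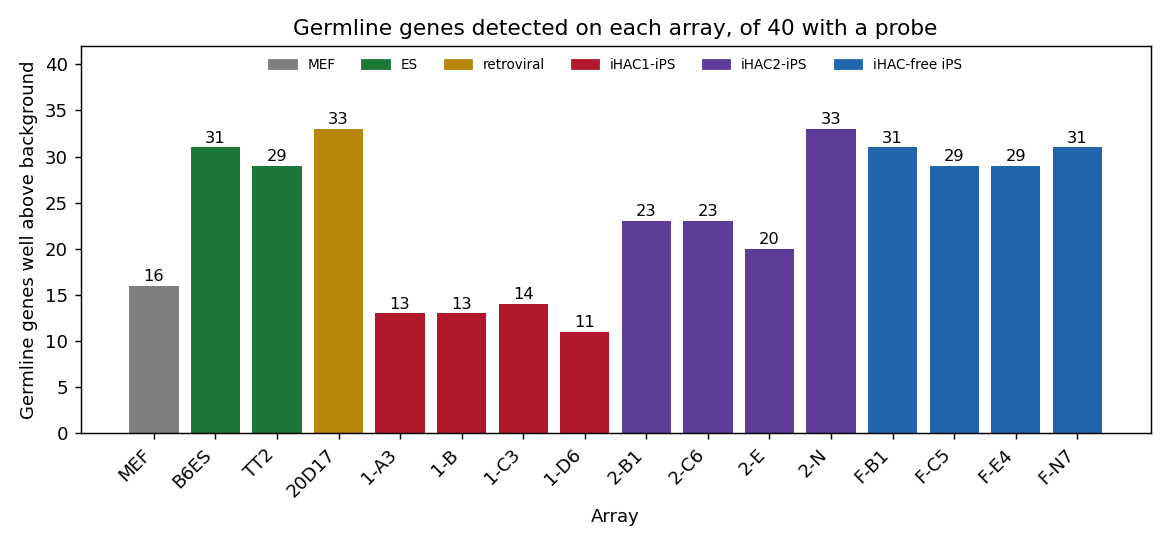
Bars give the number of germline genes well above background on each array, of 40 with a probe, coloured by group. The 4 iHAC1-iPS clones lie between 11 and 14, and 2-N reaches 33 against 20 to 23 in the other iHAC2-iPS clones.

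The first comparison asked how far iHAC1-iPS cells, which kept their vector, were from ES cells. Of the 37 genes tested 28 were called (limma, adjusted p under 0.05 and at least 2-fold), 27 lower and 1 higher, where 14.3% of all tested probes were called and 7.13% were lower. The median difference over the 40 genes was -3.16 on the log2 scale, against 0.04 over all tested probes. The 2 groups did not overlap in 31 of the 40 genes, dim values included, and in 48.4% of all tested probes with a value on every array. Called lower were 6 of 7 RNA-binding and specification factors, 4 of 8 tested piRNA genes, 7 of 8 genes of the meiotic chromosome axis, 3 of 4 tested recombination genes, 4 of 7 testis genes and all 3 Rhox genes. The iHAC1-iPS clone that shared a slide with the ES lines, 1-D6, had a median difference of -3.41 from them over the 40 genes. These 3 arrays are part of the fit, so this is no independent check of the calls. With the slide as a fixed block 21 genes were called, beside 7.77% of all tested probes. Pluripotency and fibroblast marker levels moved with this comparison too, as given above, and their part in it was not tested. With normexp background correction, which adds a constant to dim signals, 15 genes were called, beside 7.54% of all tested probes. Without B6ES 17 were called, beside 5.94%.

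**Figure D3:**
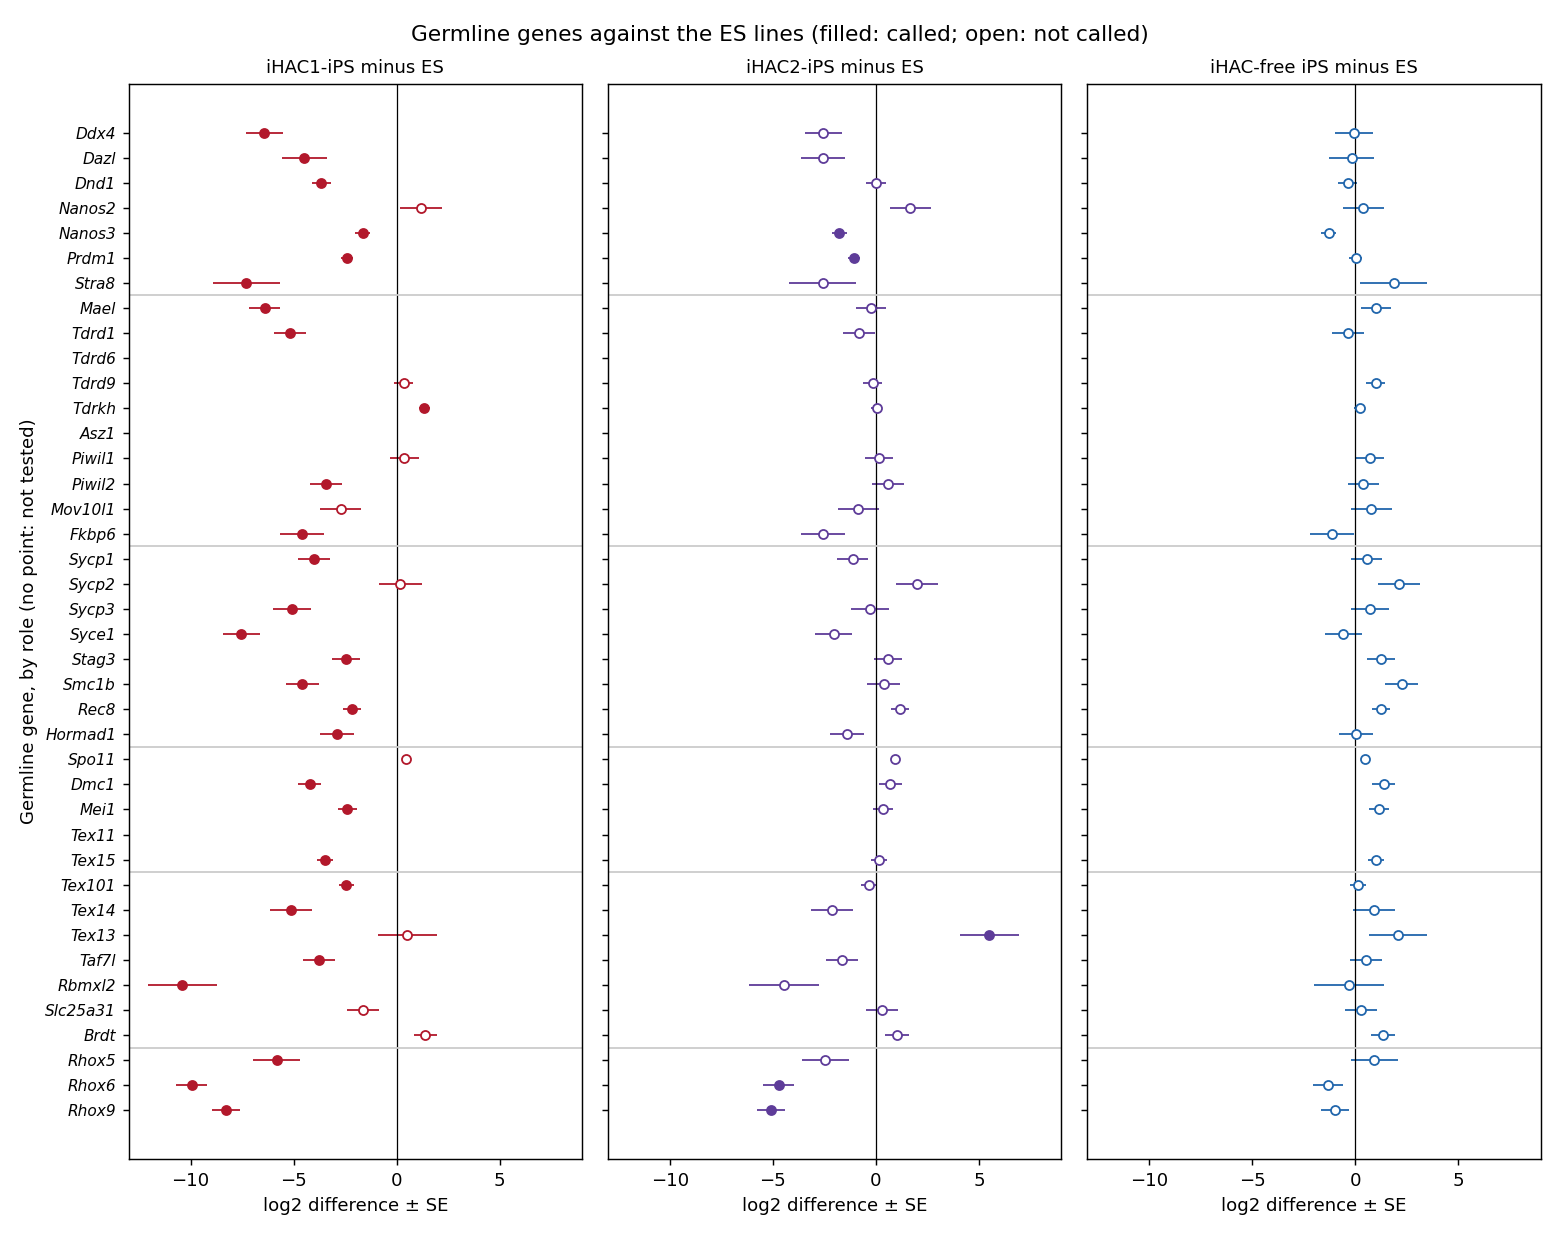
Points are fitted log2 differences from the ES lines with their standard errors for each germline gene (rows, by role), in iHAC1-iPS, iHAC2-iPS and iHAC-free iPS cells from left to right. Filled points passed the call, which holds for 28, 5 and 0 genes, and genes without a point were not tested.

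Among the RNA-binding and specification factors, values are given in the order of the lines named above. Ddx4, the Vasa RNA helicase, gave 1.58 and 0.65 in the ES lines, -4.76, -5.18 (dim), -5.69 (dim) and -5.57 (dim) in the iHAC1-iPS clones, -1.85, -2.58, -2.82 and 1.54 in the iHAC2-iPS clones, 1.17, 1.20, 0.86 and 1.06 in the iHAC-free lines, 0.28 in 20D17 and -4.06 in MEFs. All 4 iHAC1-iPS clones lay below both ES lines, and the difference was -6.41 ± 0.91 (SE), adjusted p = 0.000794. Of the iHAC2-iPS clones 2-B1, 2-C6 and 2-E lay between, while 2-N was at the level of B6ES. Dazl, which controls the translation of germ cell messages, gave -2.61 and -3.33 in the ES lines, -7.50, -7.64, -6.72 and -7.95, dim throughout in the iHAC1-iPS clones, -6.46 (dim), -6.45 (dim), -7.29 (dim) and -1.97 in the iHAC2-iPS clones, -2.95, -3.13, -3.51 and -2.93 in the iHAC-free lines, -2.48 in 20D17 and -8.10 (dim) in MEFs. It was dim in 7 of the 8 clones that still carried a vector, and iHAC1-iPS cells were lower than ES cells at least 8.43-fold (-4.48 ± 1.08 (SE), adjusted p = 0.0129). A second and dimmer Dazl probe was not called there (-2.01 ± 0.92 (SE), adjusted p = 0.14), and in 1-C3 it was well above background at -4.40. Stra8, which is switched on by retinoic acid at meiotic entry, gave 0.47 and -1.11 in the ES lines, -7.29, -7.64, -7.59 and -7.99, dim throughout in the iHAC1-iPS clones, -3.35, -4.92 (dim), -5.40 (dim) and 2.04 in the iHAC2-iPS clones, 3.48, 1.07, 0.11 and 1.55 in the iHAC-free lines, -0.16 in 20D17 and -8.16 (dim) in MEFs. Every iHAC1-iPS clone was dim, lower than in ES cells at least 52.9-fold (-7.31 ± 1.62 (SE), adjusted p = 0.00853), and its highest value was in F-B1. Dnd1, an RNA-binding protein that primordial germ cells need to survive, gave 0.26 and 0.51 in the ES lines, -3.31, -3.55, -2.97 and -3.22 in the iHAC1-iPS clones, 1.26, -1.11, 0.62 and 0.83 in the iHAC2-iPS clones, 0.04, 0.08, -0.02 and -0.01 in the iHAC-free lines, 0.45 in 20D17 and -2.69 in MEFs. It was well above background on every array, and the iHAC1-iPS clones were again the lowest of the iPS cells (-3.65 ± 0.47 (SE), adjusted p = 0.000463).

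Prdm1, the repressor known as Blimp1 that starts the germ cell fate, gave -1.58 and -1.32 in the ES lines, -3.74, -4.11, -3.94 and -3.62 in the iHAC1-iPS clones, -1.90, -3.19, -2.46 and -2.47 in the iHAC2-iPS clones, -1.39, -1.12, -1.77 and -1.41 in the iHAC-free lines, -1.97 in 20D17 and -3.73 in MEFs. It fell in iHAC1-iPS cells (-2.40 ± 0.30 (SE), adjusted p = 0.000319) and in iHAC2-iPS cells (-1.05 ± 0.30 (SE), adjusted p = 0.0406). Nanos3, which maintains primordial germ cells, gave -3.57 and -2.79 in the ES lines, -4.72, -4.90, -5.14 and -4.54 in the iHAC1-iPS clones, -4.20, -4.70, -5.68 and -5.26, dim throughout in the iHAC2-iPS clones, -4.34, -4.78 (dim), -4.46 and -4.29 in the iHAC-free lines, -2.92 in 20D17 and -5.96 (dim) in MEFs. Both ES lines and 20D17 were the highest arrays, and the gene fell in iHAC1-iPS cells (-1.65 ± 0.36 (SE), adjusted p = 0.00788). In iHAC2-iPS cells it was dim in all 4 clones and 3.43-fold lower (-1.78 ± 0.36 (SE), adjusted p = 0.014). Its dim levels there lay above the lowest level well above background of each array, so the bound and the fitted fold are the same. Nanos2, a factor of male germ cells, was well above background in 1-D6 (-3.88) and 2-N (-3.81) and dim on the other 14 arrays, between -7.96 and -6.30.

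Of the piRNA genes, Mael, the Maelstrom protein of transposon silencing, gave -0.06 and -1.45 in the ES lines, -7.51, -7.63, -5.56 and -7.97, dim throughout in the iHAC1-iPS clones, -1.07, -1.96, -1.60 and 0.61 in the iHAC2-iPS clones, 0.02, 0.20, 0.26 and 0.59 in the iHAC-free lines, 0.68 in 20D17 and -8.14 (dim) in MEFs. ES, iHAC2-iPS and iHAC-free cells lay within 3 log2 units of each other, and iHAC1-iPS cells were lower than ES cells at least 36.4-fold (-6.41 ± 0.74 (SE), adjusted p = 0.000211). Tdrd1, a Tudor protein that docks Piwi proteins, gave 0.11 and -1.30 in the ES lines, -7.14 (dim), -5.68 (dim), -3.56 and -6.74 (dim) in the iHAC1-iPS clones, -0.81, -1.80, -1.15 and -1.83 in the iHAC2-iPS clones, -0.95, -1.02, -0.78 and -0.95 in the iHAC-free lines, -1.04 in 20D17 and -3.33 in MEFs. Among the iHAC1-iPS clones 1-C3 was the exception to dim values, close to the level of MEFs (-5.19 ± 0.77 (SE), adjusted p = 0.00104 against ES cells). Piwil2, the Piwi protein MILI, gave -2.11 and -3.19 in the ES lines, -6.08 (dim), -5.08, -5.14 and -7.95 (dim) in the iHAC1-iPS clones, -2.74, -1.91, -2.92 and -0.70 in the iHAC2-iPS clones, -2.32, -1.93, -2.60 and -2.10 in the iHAC-free lines, -2.62 in 20D17 and -7.24 (dim) in MEFs. It was dim in 1-A3 and 1-D6, and all iHAC1-iPS clones were below the ES lines (-3.42 ± 0.77 (SE), adjusted p = 0.00894). Fkbp6, a co-chaperone of piRNA loading, gave -2.82 and -3.22 in the ES lines, -7.41, -7.55, -7.64 and -7.76, dim throughout in the iHAC1-iPS clones, -6.31 (dim), -6.63 (dim), -7.14 (dim) and -2.32 in the iHAC2-iPS clones, -3.26, -3.26, -5.48 (dim) and -4.46 in the iHAC-free lines, -1.86 in 20D17 and -7.98 (dim) in MEFs. The iHAC1-iPS clones were all dim, lower than in ES cells at least 8.16-fold (-4.57 ± 1.07 (SE), adjusted p = 0.0109), and of the iHAC2-iPS clones 2-N alone was well above background.

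Tdrkh, a Tudor protein of the mitochondrial surface that takes part in trimming piRNAs, ran the other way. It gave -0.87 and -0.35 in the ES lines, 0.47, 1.22, 0.90 and 0.34 in the iHAC1-iPS clones, -0.34, -0.70, -0.40 and -0.84 in the iHAC2-iPS clones, -0.06, -0.49, -0.68 and -0.31 in the iHAC-free lines, -0.77 in 20D17 and -0.62 in MEFs. All 4 iHAC1-iPS clones lay above every other array, and it rose against ES cells (1.34 ± 0.27 (SE), adjusted p = 0.00543). Mov10l1, the helicase that feeds piRNA precursors to Piwi proteins, was not called (-2.72 ± 0.99 (SE), adjusted p = 0.0716). It was dim in all 4 iHAC1-iPS clones, in 2-B1, 2-C6 and 2-E and in TT2, and read -2.62 in 2-N and -4.59 to -3.77 in the iHAC-free lines. Tdrd9 was well above background in MEFs (-4.76), 20D17 (-4.91) and F-B1 (-5.17), and Piwil1 in 1-C3 alone (-4.85). Probes of related names were also on the array. Tex19.1, a mammal-specific germline and ES cell gene, gave 3.58 and 3.50 in the ES lines, -6.16 (dim), -1.30, 0.42 and -4.09 in the iHAC1-iPS clones, 3.26, 4.04, 2.67 and 4.61 in the iHAC2-iPS clones, 4.29, 3.89, 3.70 and 4.13 in the iHAC-free lines, 4.14 in 20D17 and -6.75 (dim) in MEFs, and fell in iHAC1-iPS cells (-6.32 ± 1.32 (SE), adjusted p = 0.00615). Tex19.2 differed from ES cells there by -1.37 ± 0.37 (SE), adjusted p = 0.0219. A pair of probes described as Piwi-like protein 4 carries transcript names. One was on in 15 of the 16 arrays and not called there (-1.07 ± 0.90 (SE), adjusted p = 0.435), and the other was dim on all. None of these was counted among the 40.

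The meiotic chromosome axis is built of synaptonemal complex proteins on a cohesin core. Sycp3, its axial element, gave -0.86 and -1.71 in the ES lines, -7.41 (dim), -6.29 (dim), -3.99 and -7.76 (dim) in the iHAC1-iPS clones, -1.01, -3.19, -1.41 and -0.71 in the iHAC2-iPS clones, -1.14, -0.16, -0.61 and -0.33 in the iHAC-free lines, -2.27 in 20D17 and -7.96 (dim) in MEFs. Of the iHAC1-iPS clones it was well above background in 1-C3 alone, and the difference from ES cells was -5.07 ± 0.91 (SE), adjusted p = 0.00277. Sycp1, the filament that bridges paired axes, gave -4.02 and -3.18 in the ES lines, -7.43, -7.58, -7.67 and -7.80, dim throughout in the iHAC1-iPS clones, -5.86 (dim), -4.57 (dim), -6.13 (dim) and -2.36 in the iHAC2-iPS clones, -3.20, -3.02, -3.15 and -2.80 in the iHAC-free lines, -3.92 in 20D17 and -7.98 (dim) in MEFs. Again 7 of the 8 vector-carrying clones were dim, and it was lower in the iHAC1-iPS clones, against ES cells, at least 5.45-fold (-4.02 ± 0.77 (SE), adjusted p = 0.00391). Syce1, of the central element, gave 0.98 and -1.13 in the ES lines, -7.43, -7.57, -7.67 and -7.83, dim throughout in the iHAC1-iPS clones, -2.75, -2.18, -3.96 and 0.39 in the iHAC2-iPS clones, -0.10, -0.94, -0.87 and -0.70 in the iHAC-free lines, 0.54 in 20D17 and -7.43 (dim) in MEFs. Here all iHAC2-iPS clones were well above background, with 2-B1, 2-C6 and 2-E below TT2, while iHAC1-iPS cells were dim and lower at least 62.7-fold (-7.55 ± 0.90 (SE), adjusted p = 0.000263). Hormad1, which marks unpaired axes, gave -2.25 and -2.82 in the ES lines, -4.77, -5.83 (dim), -5.43 (dim) and -5.75 (dim) in the iHAC1-iPS clones, -4.19 (dim), -4.19, -5.74 (dim) and -1.57 in the iHAC2-iPS clones, -2.47, -1.92, -3.17 and -2.35 in the iHAC-free lines, -1.43 in 20D17 and -4.84 in MEFs. The ES lines were above all iHAC1-iPS clones (-2.91 ± 0.82 (SE), adjusted p = 0.0257) and 2-N was above them.

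Meiotic cohesin has subunits of its own. Smc1b, its coiled-coil subunit, gave -2.52 and -1.96 in the ES lines, -6.89, -7.13, -6.94 and -6.34, dim throughout in the iHAC1-iPS clones, -1.55, -3.96, -1.75 and -0.18 in the iHAC2-iPS clones, -0.14, 1.04, -1.01 and 0.20 in the iHAC-free lines, -1.12 in 20D17 and -4.79 in MEFs. No iHAC1-iPS clone was on, although the gene was well above background in MEFs, and the level was lower than in ES cells at least 14-fold (-4.58 ± 0.79 (SE), adjusted p = 0.00229). Stag3, the subunit that sits on the ring, gave -1.24 and -1.58 in the ES lines, -3.52, -3.82, -4.20 and -4.01 in the iHAC1-iPS clones, -1.38, -1.32, -1.99 and 1.34 in the iHAC2-iPS clones, -0.36, 0.28, -0.49 and -0.02 in the iHAC-free lines, -1.28 in 20D17 and -4.42 in MEFs. It was well above background on every array and fell in iHAC1-iPS cells (-2.48 ± 0.68 (SE), adjusted p = 0.0229). Rec8, the kleisin that closes the ring, gave 1.92 and 1.26 in the ES lines, -0.98, -0.30, -0.37 and -0.63 in the iHAC1-iPS clones, 3.20, 1.80, 3.61 and 2.39 in the iHAC2-iPS clones, 3.04, 3.09, 2.40 and 2.87 in the iHAC-free lines, 1.13 in 20D17 and 0.08 in MEFs. It fell in iHAC1-iPS cells (-2.16 ± 0.43 (SE), adjusted p = 0.00468), although its second probe was not called (-1.26 ± 0.44 (SE), adjusted p = 0.0631). Sycp2, the partner of Sycp3, was well above background in 20D17 (-5.59), 2-N (-4.20) and F-N7 (-2.45) and dim on the other 13 arrays.

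Of the recombination genes 3 fell in iHAC1-iPS cells. Dmc1, the meiotic recombinase, gave -2.34 and -3.35 in the ES lines, -7.38, -7.47, -5.66 and -7.73, dim throughout in the iHAC1-iPS clones, -2.08, -3.12, -1.74 and -1.63 in the iHAC2-iPS clones, -1.39, -1.27, -1.76 and -1.38 in the iHAC-free lines, -3.42 in 20D17 and -7.97 (dim) in MEFs. It was dim in the iHAC1-iPS clones and lower than in ES cells at least 8.71-fold (-4.22 ± 0.55 (SE), adjusted p = 0.000472). Mei1, needed for meiotic DNA breaks, gave -3.10 and -3.56 in the ES lines, -5.33, -5.60, -5.45 and -6.49, dim throughout in the iHAC1-iPS clones, -3.00, -3.92, -3.30 and -1.73 in the iHAC2-iPS clones, -2.27, -2.21, -2.32 and -1.96 in the iHAC-free lines, -3.56 in 20D17 and -7.68 (dim) in MEFs. It too was dim in those 4 clones, lower at least 4.89-fold (-2.38 ± 0.48 (SE), adjusted p = 0.00517). Tex15, a testis factor of meiotic break repair, gave -1.11 and -2.55 in the ES lines, -5.26 (dim), -4.60, -5.67 (dim) and -5.61 (dim) in the iHAC1-iPS clones, -1.70, -1.86, -1.91 and -1.20 in the iHAC2-iPS clones, -1.10, -0.88, -0.68 and -0.54 in the iHAC-free lines, -2.51 in 20D17 and -2.87 in MEFs. The iHAC1-iPS clones lay below MEFs as well as below ES cells (-3.46 ± 0.39 (SE), adjusted p = 0.000198). Spo11, the enzyme that makes meiotic breaks, gave -5.00 and -4.50 in the ES lines, -4.16, -4.15, -4.59 and -4.34 in the iHAC1-iPS clones, -3.58, -4.04, -3.89 and -3.75 in the iHAC2-iPS clones, -4.31, -4.48, -4.23 and -4.05 in the iHAC-free lines, -4.47 in 20D17 and -4.64 in MEFs. Its 16 values lay between -5.00 and -3.58, and it was not called in any of the 5 comparisons. For iHAC2-iPS against ES cells it missed the call by the limit on fold alone, as given below. A second and dimmer Spo11 probe was dim on all 16 arrays.

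The testis genes act in the formation of sperm. Rbmxl2, a testis homologue of a splicing regulator, gave 2.98 and 2.97 in the ES lines, -7.26, -7.38, -7.46 and -7.61, dim throughout in the iHAC1-iPS clones, -0.59, -0.70, -6.95 (dim) and 2.33 in the iHAC2-iPS clones, 2.68, 2.70, 2.53 and 2.78 in the iHAC-free lines, 2.51 in 20D17 and -7.72 (dim) in MEFs. It was on in ES and iHAC-free cells and dim in all iHAC1-iPS clones and in 2-E, and iHAC1-iPS cells were lower than ES cells at least 520-fold (-10.40 ± 1.69 (SE), adjusted p = 0.00164). Tex14, of the bridges between germ cells, gave -2.59 and -2.07 in the ES lines, -7.29, -7.41, -7.48 and -7.67, dim throughout in the iHAC1-iPS clones, -4.79 (dim), -5.57 (dim), -6.25 (dim) and -1.20 in the iHAC2-iPS clones, -1.08, -1.24, -2.16 and -1.14 in the iHAC-free lines, -3.21 in 20D17 and -5.43 in MEFs. Of the 8 vector-carrying clones 7 were dim, and it was lower in iHAC1-iPS cells at least 13.2-fold (-5.13 ± 1.00 (SE), adjusted p = 0.00438). Taf7l, a germ cell form of a subunit of the general transcription factor TFIID, gave -3.31 and -4.24 in the ES lines, -7.37, -7.50, -7.58 and -7.74, dim throughout in the iHAC1-iPS clones, -6.30 (dim), -5.19 (dim), -7.08 (dim) and -3.09 in the iHAC2-iPS clones, -3.69, -3.42, -2.93 and -2.91 in the iHAC-free lines, -3.59 in 20D17 and -7.95 (dim) in MEFs. Its pattern over the clones was like that of Tex14, and iHAC1-iPS cells were lower at least 4.83-fold (-3.77 ± 0.79 (SE), adjusted p = 0.00636). Tex101, a surface protein of sperm precursors, gave -1.26 and -1.48 in the ES lines, -3.75, -3.80, -3.46 and -4.21 in the iHAC1-iPS clones, -1.15, -2.58, -1.58 and -1.48 in the iHAC2-iPS clones, -1.04, -0.69, -1.77 and -1.44 in the iHAC-free lines, -0.78 in 20D17 and -4.87 in MEFs. It was measurable on every array and fell in iHAC1-iPS cells (-2.44 ± 0.38 (SE), adjusted p = 0.00131). Slc25a31, the testis ADP/ATP carrier, gave -4.88 and -6.62 (dim) in the ES lines, -7.33, -7.33, -7.56 and -7.30, dim throughout in the iHAC1-iPS clones, -6.27 (dim), -5.27 (dim), -7.05 (dim) and -3.28 in the iHAC2-iPS clones, -5.56, -5.10, -5.73 and -5.46, dim throughout in the iHAC-free lines, -4.07 in 20D17 and -7.90 (dim) in MEFs. It was on in B6ES, 2-N and 20D17 alone and was not called against ES cells (-1.63 ± 0.78 (SE), adjusted p = 0.163).

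Tex13, an X-linked testis gene, gave -7.64 and -7.91 (both dim) in the ES lines, -5.89, -7.58, -7.65 and -7.87, dim throughout in the iHAC1-iPS clones, 1.67, -2.45, -6.01 (dim) and -2.23 in the iHAC2-iPS clones, -5.47, -5.68, -5.87 and -5.66, dim throughout in the iHAC-free lines, -7.94 (dim) in 20D17 and -8.06 (dim) in MEFs. It was on in 3 of the 4 iHAC2-iPS clones, most in 2-B1, and dim elsewhere, and it was the gene that rose in iHAC2-iPS cells against ES cells, at least 17-fold (5.51 ± 1.41 (SE), adjusted p = 0.0303). Its call was lost with normexp background correction (log2 difference 1.91, adjusted p = 0.155), with 1 common floor set under all levels (3.24, adjusted p = 0.125), and without B6ES or TT2 (adjusted p = 0.146 and 0.153). The accession of this probe is now listed as Tex13b. Brdt, a testis bromodomain protein, was well above background in MEFs (-3.92), 1-A3 (-4.49) and 1-B (-4.72) and dim on the other arrays. A second Brdt probe, well above background on 6 arrays, rose in iHAC2-iPS against ES cells (2.40 ± 0.63 (SE), adjusted p = 0.032) where the first was not (1.03 ± 0.58 (SE), adjusted p = 0.242).

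The Rhox genes are homeobox genes in a cluster on the X chromosome, with mm9 probe positions chrX:35182945-35183004 for Rhox6 and chrX:35254147-35254206 for Rhox9. Rhox5, its founding member, gave 5.99 and 4.72 in the ES lines, -2.75, 1.72, 0.69 and -1.55 in the iHAC1-iPS clones, 2.22, 3.69, 1.09 and 4.61 in the iHAC2-iPS clones, 6.63, 6.67, 6.11 and 5.74 in the iHAC-free lines, 6.64 in 20D17 and -0.55 in MEFs. Its 4 iHAC1-iPS values spread over more than 4 log2 units, all below the ES lines (-5.82 ± 1.15 (SE), adjusted p = 0.00463). Rhox6 gave 4.60 and 2.23 in the ES lines, -7.04, -6.67, -5.76 and -6.67, dim throughout in the iHAC1-iPS clones, -2.07, -0.98, -2.49 and 0.33 in the iHAC2-iPS clones, 1.79, 2.22, 1.85 and 2.55 in the iHAC-free lines, 2.83 in 20D17 and -7.68 (dim) in MEFs. It was dim in iHAC1-iPS cells and lower than in ES cells at least 679-fold (-9.95 ± 0.75 (SE), adjusted p = 2.08e-05). Rhox9 gave 4.57 and 2.39 in the ES lines, -4.24, -5.06, -4.61 and -5.23 in the iHAC1-iPS clones, -1.82, -1.73, -2.82 and -0.02 in the iHAC2-iPS clones, 2.21, 2.72, 2.20 and 2.92 in the iHAC-free lines, 2.80 in 20D17 and -7.01 (dim) in MEFs. The iHAC1-iPS clones were lowest of the iPS cells here too (-8.26 ± 0.69 (SE), adjusted p = 3.46e-05). Rhox6 and Rhox9 are close relatives, and signal shared between their probes was not tested. In both, B6ES was more than 2 log2 units above TT2.

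In the second comparison, iHAC2-iPS cells against ES cells, 5 of the 37 genes were called, where 6.80% of all tested probes were called and 3.28% were lower. Rhox6 (-4.72 ± 0.75 (SE), adjusted p = 0.00616), Rhox9 (-5.08 ± 0.69 (SE), adjusted p = 0.00316), Nanos3 and Prdm1 were lower, and Tex13 was higher. The median difference over the 40 genes was -0.20. Rhox5 was not called (-2.45 ± 1.15 (SE), adjusted p = 0.168), and neither were Ddx4 (-2.54 ± 0.91 (SE), adjusted p = 0.0858) and Rbmxl2 (-4.45 ± 1.69 (SE), adjusted p = 0.0984). No piRNA gene, meiotic axis gene or recombination gene was called by limma, with 1, 2 and 1 of them at an unadjusted p under 0.05. The recombination gene was Spo11, which passed the adjusted p and missed only the 2-fold limit (0.93 ± 0.20 (SE), adjusted p = 0.0184). With the compared groups alone in the fit no gene was called, beside 0.0605% of all tested probes. Without B6ES 2 genes were called and without TT2 3, beside 1.18% and 1.02%. The call of Rhox6 was lost without B6ES, that of Nanos3 without TT2, and that of Prdm1 without either ES line, without 2-C6 and without 2-E.

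The iHAC2-iPS clones differed among themselves, in many genes but not in all by 2-N standing above the rest. Tex13 was highest in 2-B1, Smc1b and Dnd1 were lowest in 2-C6, and Rbmxl2 was dim in 2-E. Of 27 genes well above background in both ES lines and all iHAC-free lines, 20 were so in all 4 iHAC2-iPS clones. Because the 27 were picked by the flag in those lines, a lower number in the clones is partly built in. Dazl, Sycp1, Taf7l and Tex14 were on in 2-N alone, Stra8 in 2-B1 and 2-N, Hormad1 in 2-C6 and 2-N, and Rbmxl2 in all but 2-E. Over all 40 genes, 9 were on in 2-N and in none of the other 3 clones, and none the other way round. This count goes by the flag, and the same share over all probes was not counted. Without 2-N the comparison with ES cells called 16 genes, 15 of them lower, where 8.62% of all tested probes were called. The 15 included all 4 lower genes named above and added Ddx4, Dazl, Stra8, Mov10l1, Fkbp6, Sycp1, Syce1, Hormad1, Tex14, Taf7l and Rbmxl2. Ddx4 then differed by -3.53 ± 0.36 (SE), adjusted p = 0.000535, and Dazl by -3.76 ± 0.38 (SE), adjusted p = 0.000531. The choice of 2-N followed from seeing its values. Summed pluripotency marker levels were 8.91, 8.31, 8.34 and 9.60 (log2) and summed fibroblast marker levels 8.52, 7.51, 7.80 and 6.88 in 2-B1, 2-C6, 2-E and 2-N, so 2-N had the highest of the former and the lowest of the latter, and their part in the germline values was not tested.

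The third comparison set the iHAC2-iPS clones against the iHAC-free lines sorted from them, which asks what differed once the vector was gone. Rhox9 (-4.11 ± 0.56 (SE), adjusted p = 0.00823) and Rhox6 (-3.41 ± 0.61 (SE), adjusted p = 0.0252) were lower in the vector-carrying clones, and they were the 2 genes called of 37, where 0.815% of all tested probes were called and 0.601% were lower. Within the lines of origin B, C, E and N, Rhox9 was lower in the clone than in its derivative in each, with log2 differences of -4.04, -4.45, -5.02 and -2.94, and so was Rhox6, with -3.86, -3.20, -4.34 and -2.22. Rhox5 differed by -4.41, -2.97, -5.02 and -1.13 and Prdm1 by -0.51, -2.06, -0.69 and -1.06, neither of which was called (adjusted p = 0.108 and 0.0539). Dazl differed by -3.52, -3.32, -3.77 and 0.96, Ddx4 by -3.03, -3.78, -3.68 and 0.48 and Stra8 by -6.83, -5.99, -5.51 and 0.49, so that 2-N, unlike the other 3 clones, was not below its derivative. None of these 3 genes was called (adjusted p = 0.187, 0.127 and 0.126).

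Over the 40 genes the median difference from the derived line was -0.72 in 2-B1, -1.61 in 2-C6, -1.10 in 2-E and -0.05 in 2-N, with dim values included. By at least 2-fold, 19, 26, 20 and 6 genes were lower and 6, 1, 2 and 8 higher. These counts include genes dim on both arrays, whose values have no order. Among the 6 higher in 2-B1, Asz1, Nanos2, Tdrd6 and Tex11 were dim in 2-B1 and in F-B1. Some of the lower genes in each line were dim on both arrays too. The same shares over all probes were not counted. The medians within slides were -0.46 on the slide with 2-B1, 2-N and their derivatives and -1.23 on the slide with 2-C6, 2-E and theirs, both from arrays that are part of the fit. Without 2-N limma called 18 genes, all lower, where 3.13% of all tested probes were called. These were Rhox5, Rhox6, Rhox9, Ddx4, Dazl, Prdm1, Stra8, Mov10l1, Fkbp6, Sycp1, Syce1, Stag3, Smc1b, Hormad1, Mei1, Tex14, Taf7l and Rbmxl2. Blocked on line of origin, with these 8 arrays alone, no gene was called (adjusted p = 0.137 for Rhox9 and 0.164 for Rhox6), nor was any other probe, and with the block in the fit of all arrays the same 2 genes were. The call of Rhox6 was lost without 2-B1, without 2-E and without any 1 of the iHAC-free lines, with adjusted p of 0.06 to 0.0906.

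**Figure D4:**
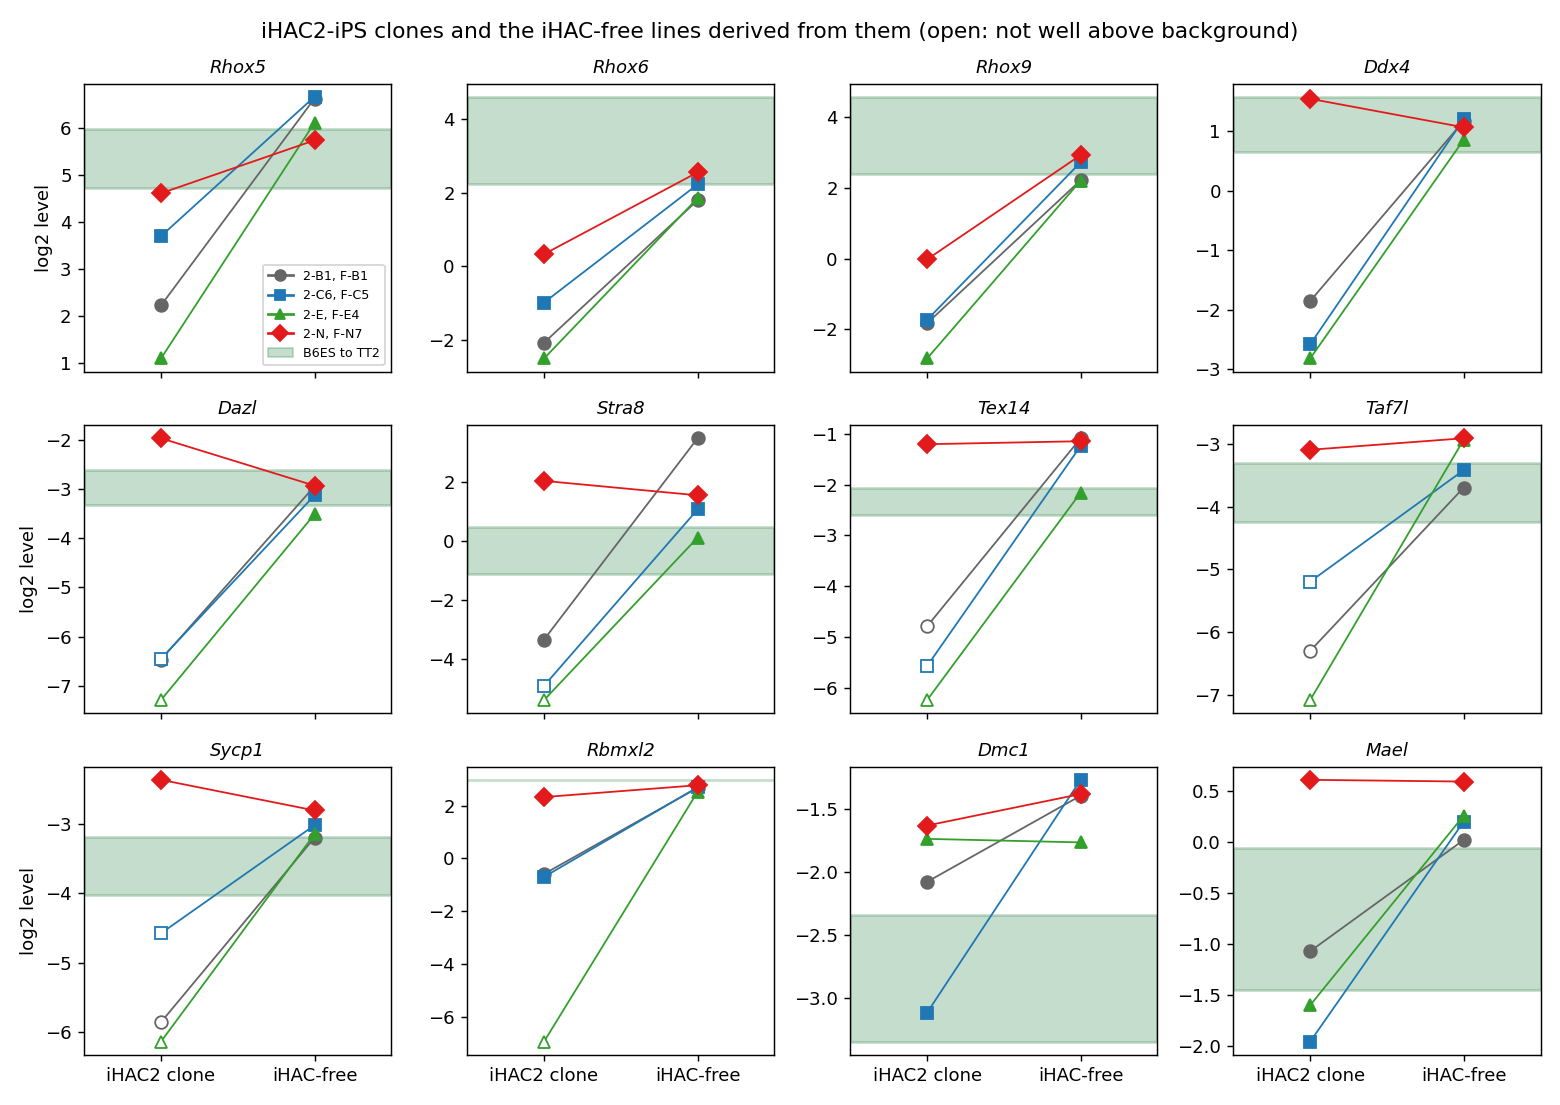
Each panel gives the log2 level of a germline gene in the 4 iHAC2-iPS clones (left) and in the iHAC-free lines derived from them (right), joined by line of origin, with the range from B6ES to TT2 as a green band, which is a thin line for Rbmxl2. Open symbols were not well above background, and the line from 2-N to F-N7 (red) is the flattest one in most panels but not for Dmc1, where 2-E to F-E4 is. The genes shown are a hand-picked part of the germline genes. In some genes not shown, such as Fkbp6 and Stag3, the difference between 2-N and F-N7 was not the smallest.

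Against ES cells the iHAC-free lines had no germline gene called by limma, where 0.363% of all tested probes were called, and 8 of 37 genes had an unadjusted p under 0.05. Those 8 were Nanos3, with a lower mean (-1.29 ± 0.36 (SE), adjusted p = 0.0993), and Brdt, Dmc1, Mei1, Rec8, Smc1b, Spo11 and Tex15, all with higher means. Of them Smc1b had the greatest difference (2.27 ± 0.79 (SE), adjusted p = 0.149). The share of all tested probes at an unadjusted p under 0.05 was not counted, here or for the other comparisons and lists. The count of 8 therefore has no such share beside it. The median over the 40 genes was 0.51. The Rhox genes were at 0.93, -1.31 and -0.96 (Rhox5, Rhox6 and Rhox9) from ES cells, with adjusted p of 0.682, 0.341 and 0.447. A p that misses the threshold does not show that the levels were alike. Over the 28 genes on in all 4 iHAC-free lines, the median range between these lines was 0.68 log2 units, from Dnd1 with 0.10 to Stra8 with 3.37.

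The clones with the 2 vectors were also compared directly. In iHAC1-iPS cells 26 of the 37 genes were called against iHAC2-iPS cells, 25 lower and Tdrkh higher (1.30 ± 0.22 (SE), adjusted p = 0.00123), where 20.0% of all tested probes were called. The median over the 40 genes was -2.81. Mael was lower at least 30.6-fold (-6.16 ± 0.60 (SE), adjusted p = 5.61e-05), Dmc1 at least 14.2-fold (-4.92 ± 0.45 (SE), adjusted p = 3.91e-05), Smc1b at least 18.2-fold (-4.97 ± 0.65 (SE), adjusted p = 0.000281) and Rhox6 at least 25.8-fold (-5.23 ± 0.61 (SE), adjusted p = 0.000155). Tex15 (-3.62 ± 0.32 (SE), adjusted p = 3.05e-05) and Rec8 (-3.32 ± 0.35 (SE), adjusted p = 8.61e-05) were called too, with no overlap between the groups. The groups did not overlap in 29 of the 40 genes, dim values included, and in 32.6% of all tested probes with a value on every array. Slc25a31 (-1.91 ± 0.64 (SE), adjusted p = 0.0341) and Tex13 (-4.99 ± 1.15 (SE), adjusted p = 0.00612) were called here and not against ES cells. Dazl, Fkbp6, Mov10l1 and Sycp2 were not called, and by their brighter probes they were on in 2-N alone among the 8 clones. Sycp1, Taf7l, Tex14 and Slc25a31 had the same pattern of flags and were called lower. Their calls rest on 2-N and on dim values, which have no order between arrays. Hormad1 was not called by its brighter probe (-1.52 ± 0.67 (SE), adjusted p = 0.0907) but was by the other (-2.55 ± 0.82 (SE), adjusted p = 0.0288). This comparison shares the iHAC1-iPS arrays with the first one, and here too the session and the vector cannot be told apart.

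A wider list of 47 other germ cell genes had 30 tested. In iHAC1-iPS against ES cells 10 (33.3%) were called, 9 of them lower, beside 14.3% of all tested probes (7.13% lower). Against iHAC2-iPS cells 11 (36.7%) were called, 10 of them lower, beside 20.0%. Between iHAC2-iPS and iHAC-free cells 1 (3.33%) was called, beside 0.815%, and none by limma for iHAC2-iPS or iHAC-free cells against ES cells, with 7 and 6 at an unadjusted p under 0.05. The median of the 37 with a probe was -0.10 for iHAC1-iPS against ES cells. Lower there were Tdrd12 (-6.58 ± 1.01 (SE), adjusted p = 0.00124), a piRNA helicase, Ldhc (-5.96 ± 0.51 (SE), adjusted p = 3.82e-05), the testis lactate dehydrogenase, Zp3 (-5.04 ± 0.84 (SE), adjusted p = 0.00189), of the egg coat, and Rnf17 (-4.51 ± 0.75 (SE), adjusted p = 0.00185). Against iHAC2-iPS cells Ldhc was lower at least 52.2-fold (-7.32 ± 0.41 (SE), adjusted p = 1.23e-06). Also called lower were Tdrd12 (-6.13), Syce2 (-3.97) and Boll (-3.83), with adjusted p of 0.000335, 0.00276 and 0.000122. Nobox, an oocyte factor, was the gene called between iHAC2-iPS and iHAC-free cells (-1.98 ± 0.43 (SE), adjusted p = 0.0495), dim in all 4 iHAC2-iPS clones.

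Of 24 regulators of chromatin and DNA methylation, all tested, 8 (33.3%) were called in iHAC1-iPS against ES cells, 7 of them lower, beside 14.3% of all tested probes. Against iHAC2-iPS cells 7 (29.2%) were called, 6 of them lower, beside 20.0%. None was called by limma in the other 3 comparisons, with 8 and 4 at an unadjusted p under 0.05 when iHAC2-iPS and iHAC-free cells were set against ES cells, and 3 between them. Dnmt3l, the cofactor of the de novo methyltransferases, had the greatest called difference from ES cells (-7.75 ± 1.00 (SE), adjusted p = 0.000438), followed by Dnmt3a (-2.42 ± 0.45 (SE), adjusted p = 0.00334), Tet1 (-2.11 ± 0.52 (SE), adjusted p = 0.0138), which oxidises methylcytosine, and Tet3, which was higher (1.90 ± 0.42 (SE), adjusted p = 0.00898). Dnmt3b differed by -2.91 and was not called (adjusted p = 0.0794), with -0.70 and 0.50 in 1-A3 and 1-D6, 3.71 and 4.29 in 1-B and 1-C3, and 4.60 and 5.13 in the ES lines. Against iHAC2-iPS cells the differences were -6.77 for Dnmt3l, -2.53 for Dnmt3b, 2.19 for Tet3 and -1.96 for Tet1, with adjusted p of 0.000185, 0.043, 0.000787 and 0.00431. Of the 5 repressors named above, L3mbtl2 fell against ES cells (-1.19 ± 0.22 (SE), adjusted p = 0.00309), while Mga (-0.72), Setdb1 (-0.65), Max (-0.01) and E2f6 (0.47) were not called, with adjusted p of 0.0278, 0.0526, 0.991 and 0.204. Against iHAC2-iPS cells Mga fell (-1.06 ± 0.17 (SE), adjusted p = 0.000839) and the other 4 were not called, at -0.95 for L3mbtl2, 0.09 for Setdb1, 0.64 for Max and 0.52 for E2f6. DNA methylation itself was not measured on these arrays.

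The single arrays are given as values. In 20D17 the median difference from the mean of the ES lines was 0.10 over the 40 genes, dim values included, and all 29 genes well above background in both ES lines were so in 20D17. In MEFs the median was -2.89.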

How the data were processed

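Total RNA of 16 cell samples was hybridised to 1-colour Agilent whole mouse genome arrays. The authors deposited the scanner output, whose processed signal intensity is background-subtracted, and a table of log2 values. Set against the scanner intensity, that deposited log2 table held the same values scaled to the 75th percentile and centred on each probe's median over the arrays. Probe positions are those of the files (mm9). Here log2 of the intensity minus its 75th percentile on the array was used, with control spots and outlier spots left out and spots of 1 probe averaged. A gene was read from its probe with the highest mean.

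One limma fit (limma 3.58.1, R 4.3.3) of all 16 arrays in 6 groups gave 5 comparisons over the 31423 of 41174 probes well above background on at least 1 array. A probe was called at a Benjamini-Hochberg adjusted p under 0.05 over all tested probes and at least 2-fold. The groups follow the labels. A fold written as "at least" sets the bright group's mean against, per array, the higher of the dim probe's own level and the lowest level well above background. Tested on simulated data of 31395 probes, the fit recovered 69%, 72%, 67%, 78% and 75% of log2 changes of 2 for iHAC1-iPS, iHAC2-iPS and iHAC-free cells against ES cells, iHAC1-iPS against iHAC2-iPS and iHAC2-iPS against iHAC-free cells. The number of arrays limits the precision. The members and the gene lists were chosen with earlier results of these data known. Genes given with the value of every array are those called in any comparison and Spo11, which was on in all arrays by its brighter probe. Other list genes named are the 4 with the greatest called difference in a comparison. Outside that rule, Dnmt3b is also given against ES cells. The repressors E2f6, Mga, Max, L3mbtl2 and Setdb1 are given for iHAC1-iPS cells whether called or not. Alternatives covered background correction, scaling, filters on dim probes, slide and line of origin as blocks, the probe rule, the groups fitted and leaving out each array. A common floor for dim values and the block fitted over all arrays were added after seeing the data. The iHAC-free lines descend from the iHAC2-iPS clones, so the line of origin pairs them, although deviations from the group means correlated at only -0.22 to 0.08 within lines.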

Additional observations from a re-analysis of the deposited data

Results flagged for a closer look

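Among 84 sets of 4 values, 1 per germline gene and group of 4 where at least 1 value was well above background, 2 held an array far from the other 3 by Dixon's criterion, which chance alone meets in about 1 of 20. Dazl read -1.97 in 2-N, against -7.29 to -6.45 (all dim) in the other iHAC2-iPS clones. Tex14 read -2.16 in F-E4, against -1.24 to -1.08 in the other iHAC-free lines.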

How the results depend on the processing

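Of 1033 values of called germline genes under alternatives, 938 kept their call, 95 were no longer called and 0 turned in direction. For iHAC1-iPS against ES cells the count of 28 became 15 with normexp correction, while the share of all tested probes went from 14.3% to 7.54%. Without 1 array the count ranged from 17 (without B6ES) to 28. For iHAC2-iPS against ES cells the count of 5 became 3 with normexp and 0 with the compared groups alone, and without 1 array it ranged from 2 (without B6ES) to 16 (without 2-N). For iHAC-free against ES cells the count of 0 became 1 with the compared groups alone (Tex13, higher) and 1 with the slide as a random block (Nanos3, lower). For iHAC2-iPS against iHAC-free cells the count of 2 became 4 with normexp, 1 with the compared groups alone and 0 with the replicate block of line of origin, and without 1 array it ranged from 1 to 18 (without 2-N). The block within the fit of all arrays left 2, and 139 of all probes (0.442%). For iHAC1-iPS against iHAC2-iPS cells 18 to 27 genes were called under all alternatives. The 23 genes of 1-C3 counted by level are given above.

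Among other germ cell genes, the 10 called for iHAC1-iPS against ES cells became 6 with the slide as a fixed block and ranged from 6 to 10 without 1 array. For iHAC2-iPS against ES cells 1 was called with normexp, 1 with the slide as a random block and 0 to 4 without 1 array. For iHAC-free against ES cells 1 was called with the slide as a random block. The 11 for iHAC1-iPS against iHAC2-iPS cells became 6 with normexp and 7 with the common floor. Nobox, the 1 gene called for iHAC2-iPS against iHAC-free cells, was lost with the common floor, no filter on dim probes, the compared groups alone, the slide as a fixed block and both fits with the replicate block (0 called in each), and without 1 array the count ranged from 0 to 6. Of the regulators, the 8 for iHAC1-iPS against ES cells ranged from 5 (without B6ES) to 10 without 1 array, and 1 was called for iHAC2-iPS against ES cells when any probe of a gene counted. Causes of these shifts were not tested. Signal near background limits all dim genes, whose differences have only a lower bound, and 2 ES arrays limit every comparison with ES cells.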

Other observations

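The genes Mov10l1, Spo11, Sycp2, Tdrd1, Tdrkh and Tex14 have other probes that were dim on every array, ES cells included, and were not tested. What is given for these genes rests on 1 probe each. Genes with more than 1 tested probe mostly differed in the same direction by each of them, and the exceptions, all without a call, were in 3 genes. For iHAC1-iPS against iHAC2-iPS cells the Brdt probes gave 0.36 and -0.64. For iHAC2-iPS against iHAC-free cells those of Fkbp6 gave -1.49 and 0.04, and those of Rec8 -0.10 and 0.08 (log2 differences, brighter probe first).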
